A study of Rattus norvegicus with 3 samples.

Results

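The colony-stimulating and stem cell niche factors described here are 10 genes: the ligands Csf1, Csf2, Csf3, Kitlg, Flt3lg and Il7, the receptors Csf1r, Csf2rb and Kit, and the adhesion molecule Vcam1. They were chosen by name, and their probes were found through the RefSeq accession printed with each spot. Of these 10, 8 had at least 1 named probe among the 13301 named genes of the array, with 10 probes in all. Csf2 and Flt3lg had no named probe and are not analysed here. Probes of 7 members were well above background, by the scanner software's own call, on at least 1 array, and those of Csf1, Csf1r, Kitlg and Vcam1 on all 3 arrays.

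RNA of 3 kinds of cultured rat cell was compared on 1 array each. COS1NR is an osteosarcoma line and MFH1NR a malignant fibrous histiocytoma line, both grown out of tumors that 4-HAQO had induced in F344 rats, and both carry a p53 mutation by the methods. MSCs were plastic-adherent cells of F344 femur marrow with no sorting step described, and they grew in medium with more serum than both sarcomas received. Each line was 1 culture of 1 tumor, the age of the rats is not stated in the sources used here, and no treatment was given in culture. With no replicates, no difference was tested, and every ratio below is a description of these 3 arrays. Both sarcoma arrays lay on 1 slide and the MSC array on another, so that in ratios to MSCs a difference of slide cannot be told apart from one of cell type.

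Colony-stimulating factors are secreted proteins that keep myeloid cells alive and drive their growth and maturation. Csf1 signals through the receptor tyrosine kinase Csf1r on macrophages and osteoclasts, Csf3 through its own receptor on neutrophils, and Csf2 through a receptor whose signalling chain, Csf2rb, also serves interleukin-3 and interleukin-5. Kitlg (stem cell factor), Il7 and Flt3lg are made by stromal cells of the marrow and act on blood stem cells, mast cells and lymphoid progenitors, and Vcam1 is the surface protein by which stroma holds cells that carry integrins of the alpha-4 type.

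Vcam1 and Kitlg were well above background in MSCs, COS1NR and MFH1NR and lower in MFH1NR than in COS1NR, and the 250 bases before their start sites are printed because short motifs of known factors lie in them. Sequences are from RefSeq on GRCr8, 5′ to 3′ on the strand of the gene, with motif matches in capitals. RefSeq promoters were given for 6 of the 10 members, and Csf1, Csf2rb, Csf3 and Il7 had no entry. Vcam1 is on the minus strand at chr2:206742784-206743033, and Kitlg on the plus strand at chr7:36782410-36782659.
Vcam1: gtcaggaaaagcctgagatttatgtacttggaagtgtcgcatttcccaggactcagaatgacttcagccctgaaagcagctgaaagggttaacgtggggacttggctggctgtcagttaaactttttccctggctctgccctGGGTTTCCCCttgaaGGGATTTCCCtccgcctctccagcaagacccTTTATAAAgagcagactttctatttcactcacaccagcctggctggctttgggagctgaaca
Kitlg: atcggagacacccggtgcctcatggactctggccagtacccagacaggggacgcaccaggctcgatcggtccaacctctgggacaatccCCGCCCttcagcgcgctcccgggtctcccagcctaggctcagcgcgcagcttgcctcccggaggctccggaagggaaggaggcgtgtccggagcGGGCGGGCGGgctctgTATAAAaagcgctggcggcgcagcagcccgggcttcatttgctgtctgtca
In Vcam1 the capitals mark a pair of matches to the core of NF-kB sites, GGG and CCC with any 4 bases between them, that begin 108 and 93 bases before the start, and overlapping matches to TATAAA on both strands at 62 and 60 bases. In Kitlg they mark matches to GGGCGG, the GC box bound by Sp1-type factors, at 161, 67 and 63 bases before the start, of which the last pair overlap, and 1 match to TATAAA at 51 bases. Both strands were searched. The NF-kB core was present in 9.97% of 33469 promoters cut to the same length, TATAAA in 12.9% and GGGCGG in 30.5%. The NF-kB core was in none of the windows of Csf1r, Csf2, Flt3lg, Kit and Kitlg. The Csf1r window, not printed, held matches to GAGGAA, searched as the motif of PU.1 (Spi1), at 229 and 95 bases. That motif was present in 23.3% of promoters. The motif search was chosen with the expression values known, and a match is a description of letters.

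Processed intensity, the background-subtracted brightness of a spot, was divided by the array's 75th percentile before any ratio was formed, and different probes were not set against each other. For a probe that missed the background call on the dimmer array, the text gives a bound, set at its own level or at the lowest level that passed the call there, whichever was higher. That lowest level was 17.9 in MSCs, against 29.4 in COS1NR and 30.1 in MFH1NR.

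Among the ligands, Csf1, the growth factor of macrophages, was bright in all 3 cell types. Its first probe (the one with the higher mean) read 27390 in MSCs against 16233 in COS1NR and 25560 in MFH1NR, and its second probe 33695, 12239 and 17501. On both probes MSCs were highest after scaling and both sarcomas lower. The log2 ratio to MSCs was -1.15 in COS1NR and -0.85 in MFH1NR on the first probe, and -1.85 and -1.70 on the second, so that the size of the difference depended on the probe. Without scaling between arrays the first probe of MFH1NR lay at -0.10. Between both sarcomas, MFH1NR over COS1NR was 0.29 on the first probe and 0.15 on the second.

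Csf3, or G-CSF, the factor that drives neutrophil production, was bright in COS1NR alone. It read 1673 in COS1NR, against 30.4 in MSCs and 20.6 in MFH1NR, where it was not well above background. The level in MSCs was near the limit of its own array. COS1NR was 41.9-fold higher than MSCs, a log2 ratio of 5.39, which was 3.87 when the background was corrected with normexp instead. MFH1NR was at least 1.70-fold lower than MSCs, a log2 bound of -0.77 that was -0.01 without scaling, and at least 71.5-fold lower than COS1NR. Of 9640 genes with a ratio of COS1NR to MSCs, 9613 (99.7%) lay below Csf3.

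Kitlg, the ligand of the receptor Kit, was measured by a bright and a dim probe of the same transcript. The bright probe read 12348 in MSCs, against 10022 in COS1NR and 5270 in MFH1NR, in descending order also after scaling. COS1NR was 1.62-fold lower than MSCs (log2 ratio -0.69), MFH1NR was 3.95-fold lower (-1.98), and MFH1NR was 2.44-fold lower than COS1NR (-1.29). The dim probe had 59.9 in MSCs and, not well above background, 34.0 in COS1NR and 19.5 in MFH1NR, which allowed a difference of at least 2.31-fold and at least 3.36-fold. Both probes placed both sarcomas below MSCs, by more for COS1NR on the dim probe.

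Il7, a growth factor of early lymphoid cells, was at the edge of detection. Its intensity was 14.0 in MSCs and 14.5 in COS1NR, neither well above background, and 38.5 in MFH1NR, not far above the limit of that array. The bounds were at least 1.27-fold higher in MFH1NR than in MSCs and at least 1.02-fold higher than in COS1NR.

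**Figure D1:**
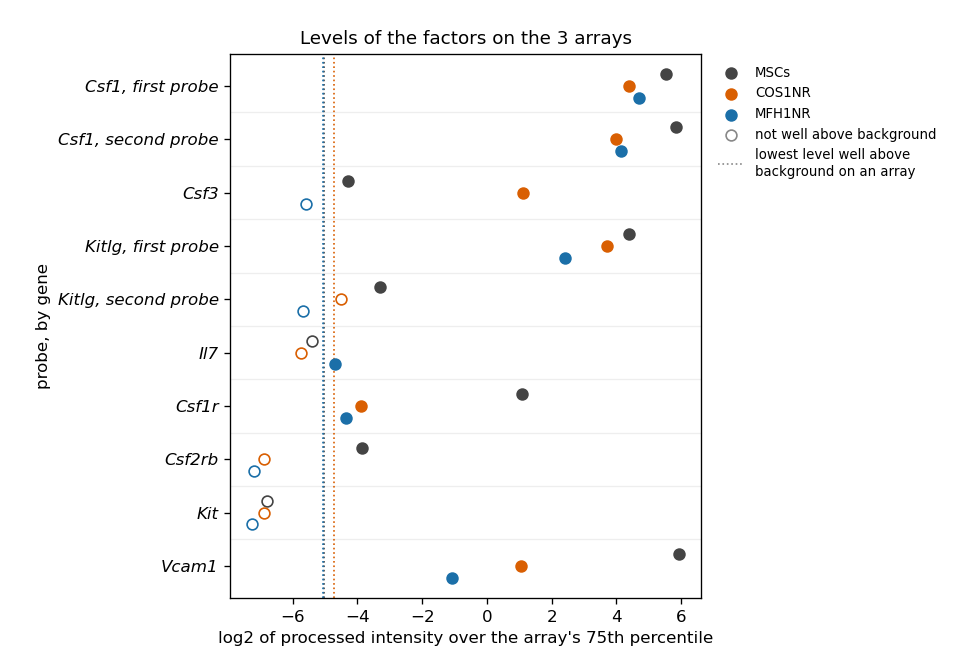
Levels of the 10 probes of 8 genes on the arrays of MSCs, COS1NR and MFH1NR, 1 point per array, as the log2 of processed intensity over the 75th percentile of the array. Open points were not well above background, and dotted lines mark the lowest level well above background on each array, where those of MSCs and MFH1NR nearly coincide. Csf1, Csf1r, Vcam1 and the first probe of Kitlg have filled points on all 3 arrays, while Kit has none.

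Of the receptors, Csf1r, through which Csf1 acts, was high in MSCs only. It read 1238 in MSCs, against 51.7 in COS1NR and 48.9 in MFH1NR, so that both sarcomas lay just above their limits. COS1NR was 31.4-fold lower than MSCs (log2 ratio -4.97) and MFH1NR 42.7-fold lower (-5.42), and MFH1NR over COS1NR was -0.44. With the normexp background correction the ratios to MSCs were smaller, at -3.92 and -4.22. Ligand and receptor therefore stood at different ratios: Csf1 was within 4-fold of MSCs in both sarcomas on either probe, and Csf1r was not.

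Csf2rb, the shared signalling chain of the receptors for GM-CSF, interleukin-3 and interleukin-5, was dim throughout. Its intensity of 40.8 in MSCs was well above background, and those of 6.57 in COS1NR and 6.76 in MFH1NR were not. COS1NR was at least 1.82-fold lower than MSCs and MFH1NR at least 2.29-fold lower. Kit, the receptor of Kitlg, was not well above background on any array, where it read 5.35 (MSCs), 6.52 (COS1NR) and 6.48 (MFH1NR), so no ratio is given.

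Because Csf1r and Csf2rb are also genes of macrophages, a list of 22 macrophage markers was read beside them. Of its 20 genes with a probe, 18 were well above background in MSCs, against 9 in COS1NR and 8 in MFH1NR. Their summed scaled intensity was 207, 13.1 and 5.42 times the 75th percentile in the same order. All 18 genes measured on at least 1 array of a pair were at least 2-fold lower in COS1NR and in MFH1NR than in MSCs. The median log2 ratio was -4.55 and -5.38. These 18 were the genes that passed the background call in MSCs. Those that missed the call in a sarcoma could hardly come out higher there, so the count leans toward lower. With only genes well above background on every array counted, 8 were lower and 0 higher in each sarcoma. Lyz2, a lysozyme, had an intensity of 32304 in MSCs and was not well above background in COS1NR (23.5) or MFH1NR (15.5). The same held for the complement gene C1qa at 5450, 6.79 and 6.88, for Ctss at 3073, 19.0 and 7.14, for the macrophage surface gene Adgre1 at 2160, 27.5 and 22.8, and for the pan-leukocyte gene Ptprc at 57.5, 14.3 and 12.2. Tyrobp, an adaptor of myeloid receptors, was well above background on each array at 11921, 50.3 and 61.3. The part of macrophage RNA in the ratios of Csf1r and Csf2rb was not tested, and in bulk RNA fewer cells of a type and less RNA per cell cannot be told apart.

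Vcam1, the adhesion molecule, was the furthest below MSCs in MFH1NR of the members with a measured ratio. It read 36358 in MSCs, against 1611 in COS1NR and 470.4 in MFH1NR, and all of these were far above the limits. COS1NR was 29.6-fold lower than MSCs (log2 ratio -4.89), MFH1NR 130.4-fold lower (-7.03), and MFH1NR 4.40-fold lower than COS1NR (-2.14). Of 9822 genes with a ratio of MFH1NR to MSCs, 98 (0.998%) lay below Vcam1. Under no scaling, median scaling, quantile normalization and normexp the ratio of MFH1NR to MSCs ran from -6.84 to -6.27.

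**Figure D2:**
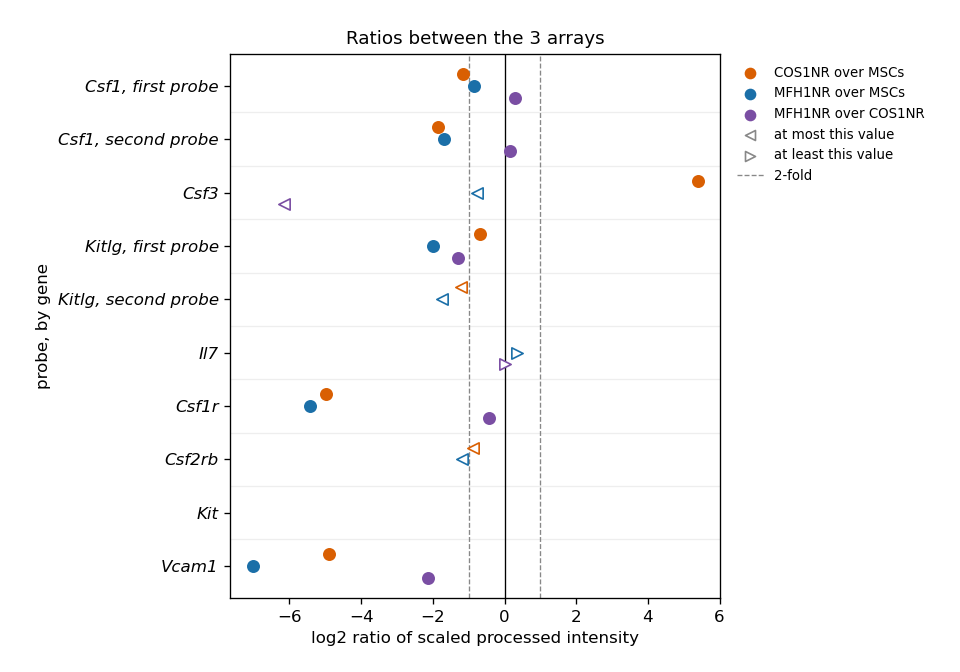
Log2 ratios of scaled processed intensity for each probe, for COS1NR over MSCs, MFH1NR over MSCs and MFH1NR over COS1NR. Circles are ratios of probes well above background on both arrays, open triangles are bounds that point toward the side where the ratio lies, and dashed lines mark 2-fold. Csf3 in COS1NR, at 5.39, is the only circle to the right of the 2-fold line, while Csf1r and Vcam1 lie at -4.89 or lower in both sarcomas.

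Counted at 2-fold, 3 of the 6 members measured on at least 1 array of the pair were lower in COS1NR than in MSCs (Csf1, Csf1r and Vcam1), against 20% of 9709 genes, and 1 (Csf3) was higher, against 20.7%. In MFH1NR, 4 of 7 were lower than in MSCs (Csf1r, Csf2rb, Kitlg and Vcam1), against 21.6% of 9822 genes, and 0 were higher, against 19.4%. Comparing MFH1NR with COS1NR, 3 of 6 were lower (Csf3, Kitlg and Vcam1), against 15.1% of 9422 genes, and 0 higher, against 12.4%. Some of these calls ended under another scaling. Csf1 in COS1NR moved to -0.75 without scaling and -0.99 with median scaling, Csf2rb in MFH1NR to at most -0.44 without scaling, -0.98 with median scaling and -0.95 with quantile normalization, and Kitlg in MFH1NR over COS1NR to -0.93 without scaling. The members' median log2 ratio was -1.01, -1.20 and -0.87 in the order given, with bounds entered at their value, and that of all genes 0.11, 0.02 and -0.09. The ratios to MSCs share the MSC array. So few genes give these counts little precision, and 2 of the 10 members were not measured.

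Higher genes made up 50.8%, 47.3% and 45.2% of all genes past 2-fold in the same order. Without scaling these shares were 68.8%, 76.1% and 66.1%, and the median of all genes moved to 0.52, 0.79 and 0.27, so that every member's ratio to MSCs shifted up by the same amount, by over 1.5 times in MFH1NR. With median scaling the share in MFH1NR over MSCs was 57.3%.

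**Figure D3:**
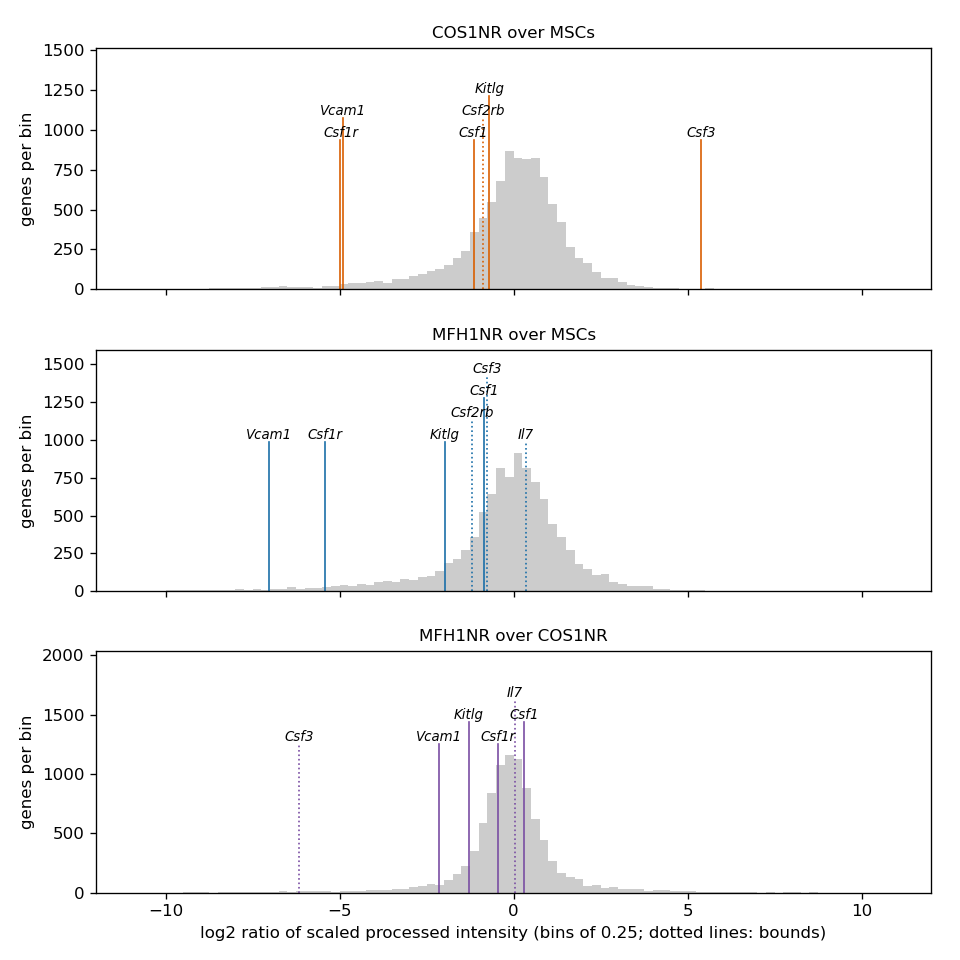
Histograms of the log2 ratio of all genes well above background on at least 1 array of a pair, in bins of 0.25, with the members marked by vertical lines (dotted where the value is a bound). Csf1r and Vcam1 stand in the lower tail of both ratios to MSCs, Csf3 in the upper tail of COS1NR over MSCs, and Csf1 and Kitlg within the body of the histogram or at its lower shoulder.

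The known partners of the members were read from a list of 19 cytokines and receptors, of which 11 had a named probe and 4 of those (Il3, Il5, Il5ra and Epo) were not well above background on any array. Il34, the other ligand of Csf1r, and Csf2ra, Flt3 and Il2rg, the partner chains or receptors of Csf2, Flt3lg and Il7, had no named probe. List counts from here on can be set beside the shares of all genes past 2-fold given above. Against MSCs these shares ran from 19.4% to 21.6%, for lower and higher genes alike. Between both sarcomas 15.1% of all genes were lower in MFH1NR and 12.4% higher. A list count near its share does not set that list apart from other genes, and no list was tested against them. In COS1NR, 2 of 7 genes measured were lower than in MSCs by 2-fold and 3 higher, with a median of 0.36. In MFH1NR, 2 of 6 were lower and 2 higher, with a median of 0.13, and in MFH1NR over COS1NR 3 of 7 were lower and 2 higher, with a median of 0.23.

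Csf3r, the receptor of Csf3, was well above background in COS1NR only, the array on which Csf3 was also highest. It read 132 in COS1NR, against 10.2 in MSCs and 6.34 in MFH1NR. COS1NR was at least 5.62-fold higher than MSCs and MFH1NR at least 5.65-fold lower than COS1NR. Il7r, the receptor chain of Il7, was well above background in MSCs at 588 and in COS1NR at 66.2 but not in MFH1NR at 6.49, the one array on which Il7 was well above background. COS1NR was 11.7-fold lower than MSCs in Il7r and MFH1NR at least 33.0-fold lower. These values are of its brightest probe. On its other probes MSCs had 252 and 58.2, and COS1NR, at 29.1 and 7.61, was not well above background.

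Il3ra, which pairs with Csf2rb to bind interleukin-3, read 679 in MSCs, against 1141 in COS1NR and 2043 in MFH1NR. Its log2 ratio to MSCs was 0.36 and 0.83, on the opposite side of 0 from that of Csf2rb. Il6, a cytokine of stromal and immune cells, had 522, 1855 and 39.5, and was 2.70-fold higher in COS1NR and 22.3-fold lower in MFH1NR than in MSCs. Like Csf3 it was highest in COS1NR and lowest in MFH1NR. Epor, the erythropoietin receptor, had 21.1, 64.5 and 97.4, with a log2 ratio of 1.21 and 1.45.

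**Figure D4:**
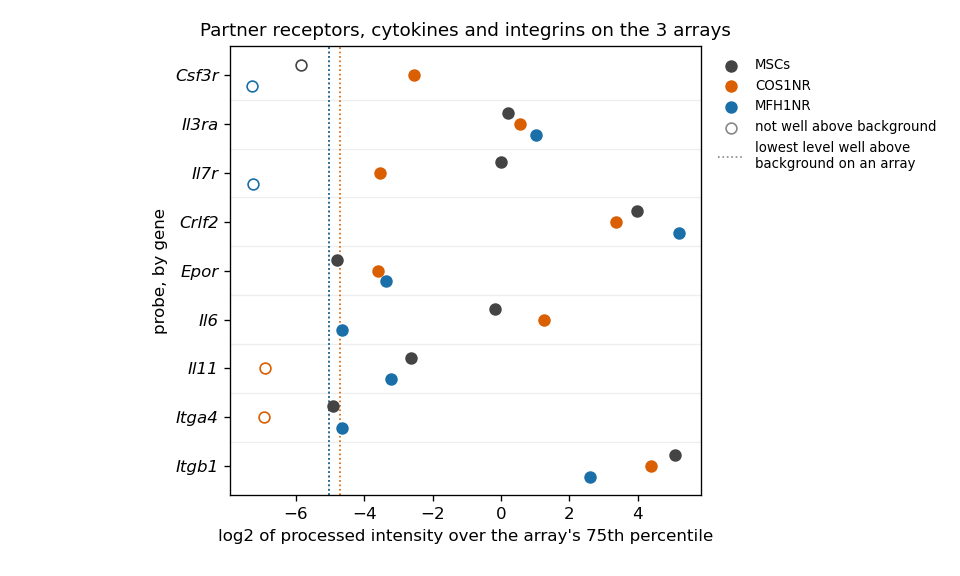
Levels of partner receptors, cytokines and integrin chains on the arrays of MSCs, COS1NR and MFH1NR, as the log2 of processed intensity over the 75th percentile of the array, with open points for probes that missed the background call and dotted lines at the lowest level well above background. Csf3r is filled in COS1NR only, and Il7r runs from MSCs at the top to MFH1NR below its limit.

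For Vcam1, the integrin chains that bind it include Itga4 and Itgb1. Itga4 was dim, at 19.3 in MSCs, 39.7 in MFH1NR and, not well above background, 6.38 in COS1NR. Itgb1, the beta chain of many integrins, had 20001, 16415 and 6090, and its log2 ratio to MSCs was -0.68 in COS1NR and -2.47 in MFH1NR. Itgb7, another beta chain, had 299, 47.8 and 61.6, with log2 ratios of -3.04 and -3.03. In the whole list of 16 adhesion genes, 10 were measured against MSCs, of which 6 were lower by 2-fold in COS1NR and 7 in MFH1NR, with 0 higher in either and medians of -3.04 and -2.75. In MFH1NR over COS1NR, 3 of 8 were lower and 1 higher, with a median of -0.11. Icam1, a ligand of leukocyte integrins, had an intensity of 23650, 658 and 4617, and so was lowest in COS1NR and not, like Vcam1, in MFH1NR. Its log2 ratio to MSCs was -5.56 and -3.11. Itgb2, the chain of leukocyte integrins, lay at -3.04 and at most -6.68, Alcam at -3.42 and at most -5.93, and Itgal, an alpha chain of leukocytes, at most -3.39 and -3.71.

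The stromal genes of the marrow niche formed a list of 22, of which 17 had a probe well above background in MSCs. In COS1NR 10 were lower by 2-fold and 3 higher (median -1.32), in MFH1NR 9 lower and 4 higher (median -1.13; 5 lower without scaling), and in MFH1NR over COS1NR 4 of 14 lower and 8 higher (median 1.15). Cxcl12, the chemokine that retains blood stem cells, read 38915 in MSCs, against 6843 in COS1NR and 8973 in MFH1NR, at log2 ratios of -2.90 and -2.87, but its second probe had -2.75 and -4.10, so that the probes differed on how both sarcomas stood to each other. Pdgfrb, a growth factor receptor of stromal cells, lay at -4.12 and -2.89, and the cadherin Cdh2 at -3.52 and at most -6.41. Angpt1, a ligand made by niche stroma, was higher in both sarcomas, by 13.6-fold in COS1NR and 2.87-fold in MFH1NR. On its bright probe Kitlg was thus at a smaller distance from MSCs than Cxcl12 in both sarcomas, while its dim probe gave only bounds.

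Csf1, Kitlg and Vcam1 exist as surface proteins that proteases can release, and the 13 measured genes of shedding proteases and their inhibitors had 10 lower by 2-fold in COS1NR and 9 in MFH1NR, with 0 higher (medians -1.46 and -1.56). In MFH1NR over COS1NR 3 of 11 were lower and 3 higher, with a median of 0.18. Mmp9, a gelatinase known to release Kitlg, had log2 ratios of -0.92 and -5.49, and Mmp2 -7.28 and -1.22, so that a different sarcoma was the lower one for each. The inhibitors Timp1, at -3.05 and -2.87, and Timp3, at most -4.34 and -4.67, were lower in both.

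Downstream, the 26 listed JAK-STAT and receptor kinase transducers had 9 of 22 lower and 2 higher in COS1NR (median -0.68), 6 of 23 lower and 3 higher in MFH1NR (median 0.10), and 1 of 23 lower and 6 higher in MFH1NR over COS1NR (median 0.03). Without scaling, 4 were lower in COS1NR, while in MFH1NR over MSCs 4 were lower and 10 higher, so that the balance turned over, and with median scaling 5 were higher there. Stat5a, the transducer of many of these receptors, had an intensity of 3000 in MSCs and 5374 in MFH1NR but 25.9, not well above background, in COS1NR. COS1NR was at least 134.1-fold lower than MSCs in Stat5a. The feedback gene Cish lay at -2.26 in both sarcomas, Socs1 at -3.22 and -2.29, and the phosphatase Ptpn6 at -1.37 and -3.23.

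NF-kB subunits and feedback genes, 14 measured of 18, had 10 lower and 1 higher in COS1NR (median -1.54) and 11 lower and 1 higher in MFH1NR (median -3.36), and 6 of 13 lower and 1 higher in MFH1NR over COS1NR (median -0.96). The cytokine Il1b, with an intensity of 30130 in MSCs, lay at -4.89 in COS1NR and at most -10.72 in MFH1NR, and Tnf at most -5.99 and -6.32. Birc3 and Nfkbie, which are induced by NF-kB, lay at -4.29 and -3.49 and at -3.08 and -4.04. Most genes of this list lay below MSCs, as Vcam1 did, and no link between them was tested.

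Of 8 myeloid transcription factors measured, 3 were lower and 1 higher in COS1NR (median -0.60), and 7 lower and 0 higher in MFH1NR (median -2.20), while 4 of 7 were lower and 1 higher in MFH1NR over COS1NR (median -1.58). Spi1, the PU.1 factor that activates Csf1r in macrophages, had an intensity of 391 in MSCs and was not well above background in COS1NR (10.9) or MFH1NR (6.33). Runx1 lay at -2.64 and -1.63, and Egr2 at -4.05 and at most -7.30.

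**Figure D5:**
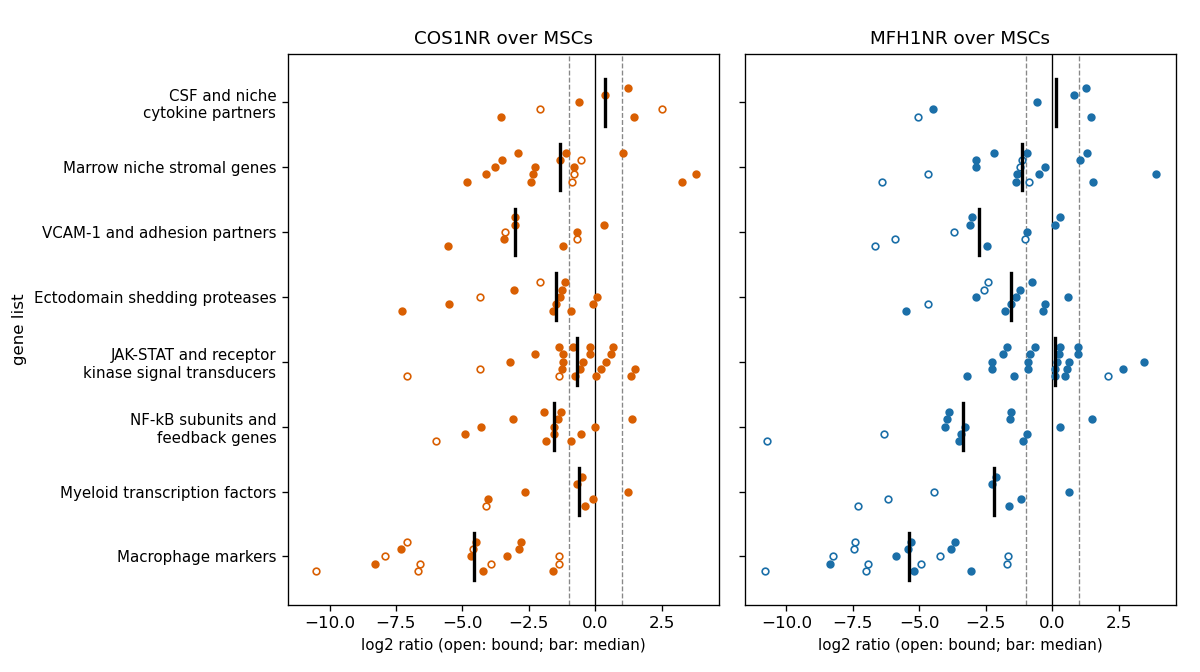
Log2 ratios to MSCs of the genes of 8 lists, for COS1NR on the left and MFH1NR on the right, with 1 point per gene, open where the value is a bound, a black bar at the median of the list and dashed lines at 2-fold. The macrophage markers have medians of -4.55 and -5.38 and every point left of the lower 2-fold line, while the partner list has medians of 0.36 and 0.13.

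Cells that carry Csf1r, Kit, Csf3r or Il7r outside the macrophage lineage were looked for with further marker lists. Osteoclast genes had 4 measured, of which 4 were lower in COS1NR (median -5.64), and 3 lower and 1 higher in MFH1NR (median -2.46). Among them the phosphatase Acp5 read 24581 in MSCs, against 102 in COS1NR and 36.5 in MFH1NR. Ctsk had 14774, 47.0 and 7209 in the same order, and so stayed bright in MFH1NR. Car2 was the gene higher in MFH1NR, with 100, 41.8 and 2493. Of 6 mast cell markers measured, 3 were lower and 0 higher in either sarcoma (medians -1.25 and -1.56). Mcpt1 had 448 in MSCs and was not well above background in COS1NR or MFH1NR, and Fcer1a, Ms4a2 and Mcpt4 were well above background nowhere. Tpsab1, Hdc and Gata2 were well above background on all 3 arrays and less than 2-fold from MSCs. Tpsab1 had 1350 in MSCs, 1554 in COS1NR and 1631 in MFH1NR. The log2 ratios of Hdc were 0.06 and 0.19, and those of Gata2 0.66 and 0.60. Neutrophil markers, 3 measured, had 2 higher in COS1NR (median 1.26), and 1 lower and 2 higher in MFH1NR (median 1.05). S100a8, abundant in neutrophils, was well above background in COS1NR only, at 292, at least 12.4-fold higher than in MSCs. Its partner chain S100a9 was not well above background on any array, nor were Elane, Mmp8 and Cxcr2. Prtn3 was higher in both sarcomas, with 39.8 in MSCs, 125 in COS1NR and 139 in MFH1NR (log2 ratios 1.26 and 1.05). Ngp was well above background in MFH1NR only, at least 2.10-fold higher than in MSCs. Camp stood at 0.06 in COS1NR over MSCs and at most -3.16 in MFH1NR over MSCs.

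Of 4 T cell markers measured, 1 was lower and 1 higher in COS1NR (median -0.09), and 2 were lower in MFH1NR (median -0.73). The single B cell marker measured, Blk, was lower in both, at most -1.07 and -1.40, a 2-fold call that neither sarcoma kept without scaling. Endothelial markers had 3 of 4 lower in each (medians -1.97 and -2.29), and blood progenitor markers 2 of 4 higher in COS1NR (median 0.56) and 1 of 5 lower in MFH1NR (median -0.58).

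Markers of the labelled cell types were read on the same arrays. All 8 MSC surface markers were well above background in MSCs, and 6 were in each sarcoma, with medians of -3.77 and -2.70. Fibroblast markers were 11 of 11 in MSCs and 9 in each sarcoma (medians -3.76 and -1.99), and 9 of 11 were lower by 2-fold in COS1NR and 7 in MFH1NR. Osteoblast markers measured against MSCs had 6 of 7 lower in COS1NR (median -1.89), and 4 of 8 lower and 2 higher in MFH1NR (median -1.07). Sp7, the osteoblast regulator, was not well above background in MSCs or in COS1NR, labelled as an osteosarcoma, and had an intensity of 108 in MFH1NR. Ibsp stood the other way between both sarcomas, at 491 in COS1NR and 51.7 in MFH1NR, against 5269 in MSCs. Dlx5 and Bglap were lower than MSCs in both, at -4.68 and -2.44 in MFH1NR.

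Likeness to a member in both ratios to MSCs was measured over the 7931 genes that passed the background call everywhere, by Euclidean distance in log2. Among the genes near Vcam1 were Ifitm1 at 0.70 and Serpinf1 at 0.97. Nearest to Csf1r were Olfml2b at 0.21, Nkd2 at 0.31 and Ccdc80 at 0.38, and 6 genes lay within 0.5. Csf1 had 423 genes within that distance, led by Srpra at 0.02, Stk40 at 0.05 and Il18bp at 0.05, and Kitlg had 115, led by Plod1 at 0.03, Ptdss1 at 0.03 and Ier5l at 0.06. Likeness over 3 arrays rests on a pair of values per gene.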

How the data were processed

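RNA of MSCs, COS1NR and MFH1NR was hybridized to 1 Agilent 1-colour whole rat genome array each. Per the file headers, the authors made the deposited processed intensities with Agilent Feature Extraction 10.5.1.1 (the labels name 9.1), which subtracted background and detrended each array without scaling between arrays. The table of the whole series held the same intensities on all 45018 spots of each array. The kits named for RNA isolation and labelling differ between the labels and the methods.

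Of 43379 spots that were not controls, 187 to 217 per array were left out as outliers, spots of a probe were averaged on the log2 scale, and each array was divided by its 75th percentile (589 in MSCs, 774 in COS1NR, 994 in MFH1NR). Between 56.6% and 59.7% of spots were well above background, and 0 were saturated. Probes were named through RefSeq accessions with a gene table on GRCr8 (16745 probes), and the design was annotated on an earlier build, so no probe coordinates are printed. Of several probes, the one with the highest mean log2 intensity stood for the gene, which was counted in a pair of arrays when this probe passed the background call on either. Replicate spots gave a log2 ratio a spread of 0.07, which covers neither cultures nor labelling, and the number of arrays limits the precision.

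No test was made. The members and lists were chosen with earlier results of these data known. Named are all members, their textbook partners and examples from the 4 genes of each list with the largest mean ratio to MSCs. Il3ra, Adgre1, Ptprc, Tpsab1, Hdc and Itgb7, and genes named only as not well above background, were added after their values were seen. Some items are not reported here. Alternatives tried were a 3-fold threshold, no bound, a stricter and no filter on dim probes, all probes averaged, the series table, and quantile, median or no scaling. Added after seeing the data were the second probe, and normexp (offset 50) on median spot intensities, since no mean intensity column was given. The counting step was tested on simulated data. Python 3.11.15 with numpy 2.4.6 and pandas 2.3.3, and R 4.3.3 with limma 3.58.1 were used.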

Additional observations from a re-analysis of the deposited data

Results flagged for a closer look

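Csf3 was above MSCs in COS1NR and below MSCs in MFH1NR at the reported scaling. The log2 ratio to MSCs was 5.391 in COS1NR, while in MFH1NR it was at most -0.7689, a bound, since the probe was not well above background there. Without scaling between arrays the bound was -0.01381, close to the level of MSCs, and with median scaling -0.5524. Each value comes from 1 array, and the difference between both sarcomas was not tested. Both ratios rest on an intensity of 30.4 in MSCs, near the lowest one called well above background on that array.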

How the results depend on the processing

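No paired analysis was possible because each cell type had 1 array, and for the same reason no replicate could be left out. No member's ratio changed sign under any alternative run. The number of members at least 2-fold higher in COS1NR than in MSCs went from 1 to 0 when only genes well above background on all 3 arrays were counted, since that leaves out Csf3. The number at least 2-fold higher in MFH1NR than in MSCs went from 0 to 1 (Il7) without scaling, and that in MFH1NR over COS1NR from 0 to 1 (Il7) with no bound for dim probes and with no filter on dim probes. The numbers of members lower by 2-fold ran from 2 to 4 in COS1NR, from 3 to 5 in MFH1NR, and from 2 to 3 in MFH1NR over COS1NR over all alternatives. Of the list counts under the alternatives, 366 were within 1.5 times the reported count and 66 were not. Signal over background limits Csf3 in MSCs, Csf1r in both sarcomas, Csf2rb, Il7 and Kit most, and intensities that were not well above background have no order. Normexp on the mean spot intensity, planned at the outset, was not run because no such column was given.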
